A study of Mus musculus with 4 samples.

Results

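Dct, Tyr, Tyrp1, Mlana, Slc45a2, Mitf, Kit and Ednrb are 8 genes best known from melanocytes, and they were followed here across sorted cells of the mouse cochlea. They were chosen by symbol, and all 8 were found among the 23420 genes listed for each replicate. Cochleae came from postnatal day 1 Atoh1-GFP transgenic mice of the CD1 strain and were cultured overnight under 5% oxygen before treatment. The hair cell (HC) samples hold the GFP positive cells and the non-hair cell (NHC) samples the GFP negative ones. Each was sequenced from control organs and from organs given 0.5 mM gentamicin, an aminoglycoside antibiotic, for 3 h, which gives 4 groups of 3 replicates. According to the methods of the study, cells with weak GFP were kept out of the HC gate, and the NHC samples pool the other epithelial cells with cells of the surrounding tissue. No sort for melanocytes was made. Their number in an NHC sample is therefore not known, and fewer cells of a type and less RNA per cell cannot be told apart in these bulk samples.

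Melanocytes arise from the neural crest and make melanin in an organelle called the melanosome. In the cochlea they enter the stria vascularis, the epithelium of the lateral wall that secretes endolymph, and become its intermediate cells, which carry the potassium channel Kcnj10 and are needed for the endocochlear potential. Mitf is the transcription factor that switches on the pigment genes. Kit, the receptor for the ligand Kitl, and Ednrb, the receptor for endothelin 3, guide the migration and survival of the precursors, and both receptors are also used by other cell types. CD1 is an albino stock, so its melanocytes are present but make no pigment.

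The values are the deposited normalized read numbers, in which 1 means no reads because 1 had been added to every value, and 1 unit above that stood for 21.7 to 28.5 reads depending on the replicate. Recovered reads on genes numbered 22400609 to 28152224 per replicate, with a median of 25116534. The sorted populations differed as their labels say. Of 10 hair cell markers, 10 were higher in HC at an adjusted p under 0.05, beside 31.9% of all tested genes. Their median log2 difference was 7.20. Genes with at least 100 reads over the 12 replicates were tested, which kept 16088 genes and 6 of the 8 melanocyte genes. Tyrp1 and Mlana had too few reads. Dct, with 27 reads over the 6 HC replicates and 1365 over the 6 NHC replicates, and Slc45a2, with 3 and 105, passed only through their reads in NHC. A gene that passes in this way had to differ between the populations, and so the differences of these 2 genes are given as a description. Of the hair cell markers, Pou4f3, Tmc1 and Gfi1 passed only through HC, which leaves 7 of 7 higher.

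Tyr, Tyrp1 and Dct encode the enzymes of melanin synthesis and belong to 1 protein family, and their promoters are shown because the 3 genes were read at very different levels in the same samples. RefSeq promoter windows of GRCm38.p6, from 250 bases before to 50 bases after a start site, were found for 6 of the 8 genes, and each was searched on both strands for TCATGTG, an E-box form that Mitf is known to bind, with reverse complement CACATGA. The 250 bases before each start site are printed, with CATGTG or its reverse complement CACATG in capitals. The Dct stretch is chr14:118052247-118052496 on the minus strand, that of Tyr is chr7:87493513-87493762 on the minus strand, and that of Tyrp1 is chr4:80833963-80834212 on the plus strand.
Dct: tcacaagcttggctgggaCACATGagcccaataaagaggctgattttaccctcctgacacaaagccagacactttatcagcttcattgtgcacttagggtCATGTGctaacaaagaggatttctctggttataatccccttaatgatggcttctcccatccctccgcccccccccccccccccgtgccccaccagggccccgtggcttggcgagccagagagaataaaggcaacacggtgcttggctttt
Tyr: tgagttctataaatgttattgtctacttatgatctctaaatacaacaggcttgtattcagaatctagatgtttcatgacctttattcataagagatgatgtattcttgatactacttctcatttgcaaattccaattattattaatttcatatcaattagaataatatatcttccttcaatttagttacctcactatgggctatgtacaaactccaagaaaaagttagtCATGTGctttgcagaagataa
Tyrp1: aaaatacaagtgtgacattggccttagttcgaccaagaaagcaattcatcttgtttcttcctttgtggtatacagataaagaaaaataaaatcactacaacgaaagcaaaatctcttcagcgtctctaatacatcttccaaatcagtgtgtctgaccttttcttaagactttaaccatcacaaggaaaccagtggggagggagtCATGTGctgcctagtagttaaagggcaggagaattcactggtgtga

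TCATGTG or its reverse complement began 232 and 151 bases before the start site of Dct, 22 bases before that of Tyr and 47 bases before that of Tyrp1. The same 7 letters were present in 3.77% of the 32851 promoter windows of this length in the table, and the 6 letters CATGTG, which the longer form contains, in 14.2%. The windows of Mitf, Kit and Ednrb held neither form. CACGTG, another E-box, was in none of the windows of these 6 genes and in 7.15% of all windows. Mlana and Slc45a2 have no entry in the table. A match in letters is a description of the sequence and was not tested for binding.

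The 8 genes did not behave as 1 group. Dct was read almost only in NHC, Mitf was lower in HC, Kit was higher in HC, Tyr and Ednrb were read at similar levels in both populations, and Tyrp1 and Mlana had at most 3 reads in every replicate but 1, in which Tyrp1 had 17. The label of melanocyte genes therefore describes what the genes are known for. As markers of this cell type in these samples they do not stand together. Of 17 other melanosome and pigment genes and 11 regulators of the lineage, 15 and 9 had at least 100 reads over the 12 replicates.

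**Figure D1:**
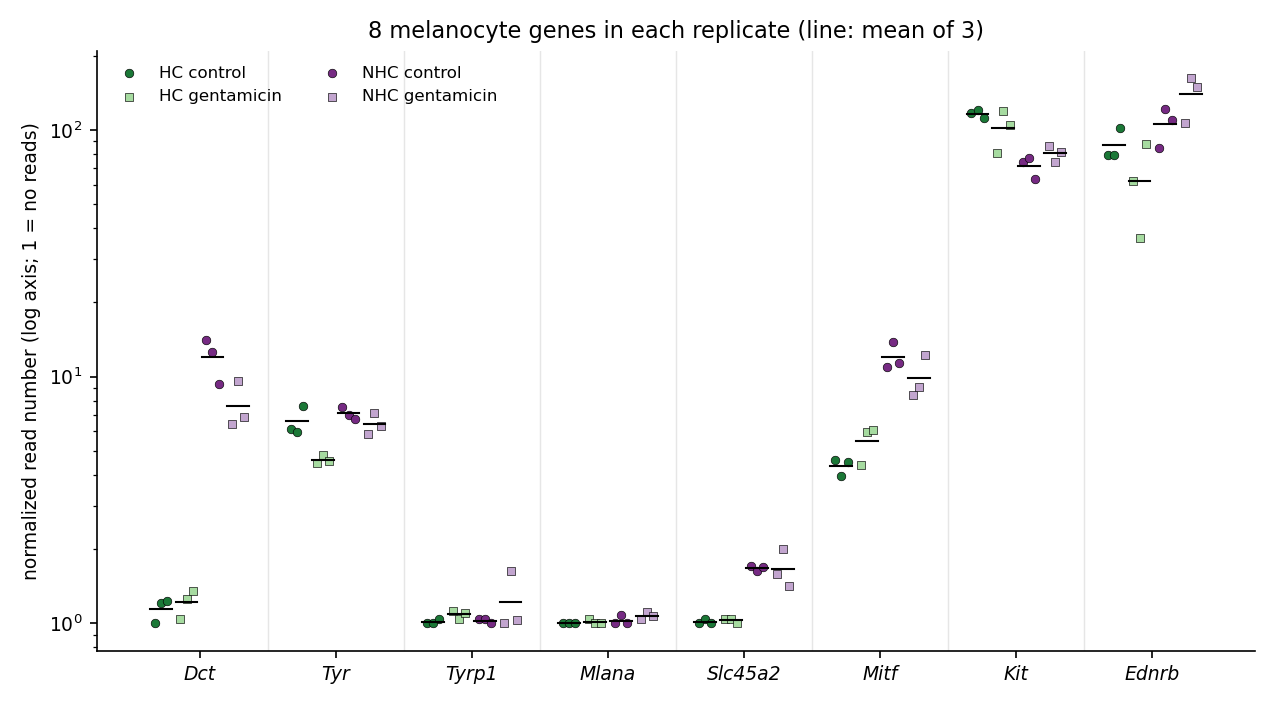
Normalized read number of the 8 genes in each replicate, on a log axis where 1 means no reads; circles are control and squares gentamicin replicates, green is HC and purple NHC, and each line is the mean of 3. Dct separates the populations, Tyr and Ednrb do not, Kit lies higher in HC, and Tyrp1 and Mlana stay near 1 except for Tyrp1 in NHC gentamicin replicate 2, at 1.63.

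Dct, dopachrome tautomerase, lies on the minus strand of chromosome 14 (118012790 to 118052244, GENCODE M21 on GRCm38). Its normalized read numbers in control NHC were 14.1, 12.6 and 9.34, from 317, 292 and 216 reads, and in control HC they were 1, 1.21 and 1.23, from 0, 5 and 5 reads. Every control HC replicate lay far below every control NHC replicate, and 1 of them had no Dct read at all. The log2 difference, HC minus NHC, was -3.37 (standard error 0.20, n = 3 per group). It is given as a description, since the gene passed the read minimum only through NHC. Since the HC level was near the added 1, this value depends on that offset and was -5.65 with an offset of 0.1. In reads scaled to the same depth, control HC held 1.34% of the Dct of control NHC, with an exact binomial 95% interval of 0.641 to 2.48% that covers counting error only. An antisense gene, 4930435M08Rik, overlaps Dct, and since the counting is not stated to use strand, their reads cannot be told apart.

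Tyrosinase, the rate-limiting enzyme of melanin synthesis, is encoded by Tyr on the minus strand of chromosome 7 (87424771 to 87493512). In control NHC its normalized read numbers were 7.56, 7.01 and 6.73, and in control HC they were 6.14, 5.98 and 7.63. The populations overlapped, with HC replicate 3 above all NHC replicates. Tyr had a log2 difference of -0.12 (standard error 0.13, 95% interval -0.40 to 0.17, limma adjusted p = 0.43), beside a median of -0.12 over all tested genes. The reads recovered for Tyr were not whole numbers in most replicates, for example 118.4 and 116.6 in HC control replicates 1 and 2, whereas those of Dct were whole in all 12. How the counting gave such fractions is not given in the sources used here.

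Tyrp1, which encodes another enzyme of the same family (chromosome 4, 80834123 to 80851719, plus strand), had 28 reads in all. It had 0, 0 and 1 reads in control HC and 1, 1 and 0 in control NHC. With gentamicin it had 3, 1 and 3 reads in HC and 0, 17 and 1 in NHC, so that 17 of these reads came from 1 library, at 1.63 units. A group total of 3 reads, the limit that a count of 0 allows, corresponds to 0.037 to 0.044 units above 1.

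Mlana, a membrane protein of the melanosome (chromosome 19, 29697824 to 29708634, plus strand), had 9 reads in all. Control HC had 0 in each replicate, control NHC had 0, 2 and 0, gentamicin-treated HC had 1, 0 and 0, and gentamicin-treated NHC had 1, 3 and 2. No fold was computed for the control counts. With gentamicin, 1 HC read against 6 NHC reads gave 17.8% of the NHC level, with a counting interval of 0.387 to 147%. A difference was not detectable at this depth.

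The melanosome transporter Slc45a2 (chromosome 15, 11000721 to 11029233, plus strand) was read at a low level, almost only in NHC. Control NHC had 17, 16 and 18 reads, or 1.70, 1.63 and 1.70 units, and control HC had 0, 1 and 0. All NHC replicates lay above all HC replicates. The single HC read against 51 NHC reads gave 2.17% of the NHC level, with a counting interval of 0.0539 to 12.6%. Its log2 difference was -0.73, and with an offset of 0.1 in place of 1 it was -2.79. Both are given as a description, since the gene passed the read minimum only through NHC.

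Mitf spans 97807052 to 98021349 on the plus strand of chromosome 6 and overlaps the pseudogene Gm15531 on the other strand. Its normalized read numbers in control NHC were 10.9, 13.8 and 11.3 and in control HC 4.60, 3.95 and 4.50. Every HC replicate was lower than every NHC replicate, yet each held clearly more Mitf reads, 69.1 to 83, than Dct reads. The log2 difference was -1.46 (standard error 0.18, limma adjusted p = 1.6e-05), and the HC level was 30.3% of that in NHC (counting interval 26.1 to 35.2%). In NHC, Dct at 1.87 ± 0.412 and Mitf at 1.78 ± 0.255 units per kilobase of exon (SD, n = 3) had overlapping replicates. In HC, Mitf was at 0.541 ± 0.0564 units per kilobase and Dct at 0.0251 ± 0.0218.

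Kit, a receptor tyrosine kinase, lies on the plus strand of chromosome 5 (75574916 to 75656722). Here HC were the higher population, with 117, 120 and 112 in the control HC replicates against 74.4, 77.3 and 63.1 in control NHC. The groups did not overlap. The log2 difference was 0.71 (standard error 0.13, limma adjusted p = 3.4e-04), and the HC level was 164% of the NHC level (counting interval 158 to 170%). Kit also marks mast cells, and the 8 mast cell markers summed to 0.521 to 0.684 units above 1 per control HC replicate and 1.89 to 4.05 per control NHC replicate. In control HC 5 of these 8 markers had no read, among them Mcpt4, Tpsb2 and Cma1, while Hdc, the enzyme of histamine synthesis, gave the highest level.

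Ednrb is a G protein-coupled receptor gene on the minus strand of chromosome 14 (103814625 to 103844402) and is also known from glia and blood vessels. The normalized read numbers were 79.2, 79.4 and 102 in control HC and 84.6, 121 and 110 in control NHC. The groups overlapped, since 1 HC replicate lay above the lowest NHC replicate. A log2 difference of -0.27 did not pass the test (standard error 0.28, 95% interval -0.88 to 0.33, limma adjusted p = 0.39). Per kilobase of exon, Ednrb was the highest of the 8 genes in both populations, at 20.1 ± 3.02 units in HC and 24.4 ± 4.38 in NHC (SD, n = 3). Kit came next with 13.0 ± 0.470 and 7.92 ± 0.838.

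Between the control populations, 4 of the 6 tested melanocyte genes were called at an adjusted p under 0.05, beside 74% of all tested genes. Dct and Slc45a2, which passed the read minimum only through NHC, are 2 of these 4. Of the other 4 tested genes 2 were called, Kit higher in HC, beside 31.9% of all tested genes called higher, and Mitf lower, beside 42.1% called lower. Nothing about the genes as a group is read from these counts. With the replicates rescaled by the median ratio over genes, the all-gene median moved from -0.12 to -0.01, a shift of 0.11, and the 4 calls and the signs of all 6 genes were as before. They were also as before with any 1 of the 6 control replicates left out.

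The level of each gene in HC, as a percent of NHC, was set beside the marker lists of other cell types. Dct in the control HC replicates was at 0, 1.94 and 2.09% of the NHC mean. The median of 8 mesenchyme markers, such as Col1a2 and Pou3f4, was 2.69 to 7.07%, that of 8 endothelial markers 4.89 to 10.6% and that of 7 macrophage markers 2.72 to 6.22%. Dct, 6 of the 7 macrophage markers and 1 of the 8 endothelial markers passed the read minimum only through NHC. Their low levels in HC were in part set by that filter. As a description, Dct in control HC lay below these list medians. In treated HC it was at 0.623, 3.79 and 5.38%, which overlapped the 2.28 to 4.48% of the endothelial and the 4.47 to 9.73% of the macrophage list, with 2 replicates above the 1.04 to 1.71% of the mesenchyme list. Mitf in control HC, at 26.8 to 32.7%, overlapped the 18.9 to 28.9% median of 10 Schwann and glial markers. Of the 2 mast cell markers tested, Tpsb2 was at 0% and Hdc at 55.7 to 74.7%, and neither overlapped Mitf. Tpsb2 had passed the read minimum only through NHC. Ednrb at 75.1 to 96.6% and Tyr at 81.7 to 109% overlapped the 77.9 to 93.4% median of 4 stria basal cell markers. Those 4 were unlike each other, with means from 1.54% (Cldn11) to 156% (Gjb6). Both genes lay below the 115 to 120% median of 8 supporting and other epithelial markers. Of these 8, Otogl, Tecta and Epcam had lower means than both genes (39.0, 59.9 and 63.8%), and the others had higher means. Kit, at 157 to 169%, was above the median of each of these lists, while single members such as Cdh1 (272 to 312%) were higher. The part that RNA from other cells plays in these levels was not tested.

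**Figure D2:**
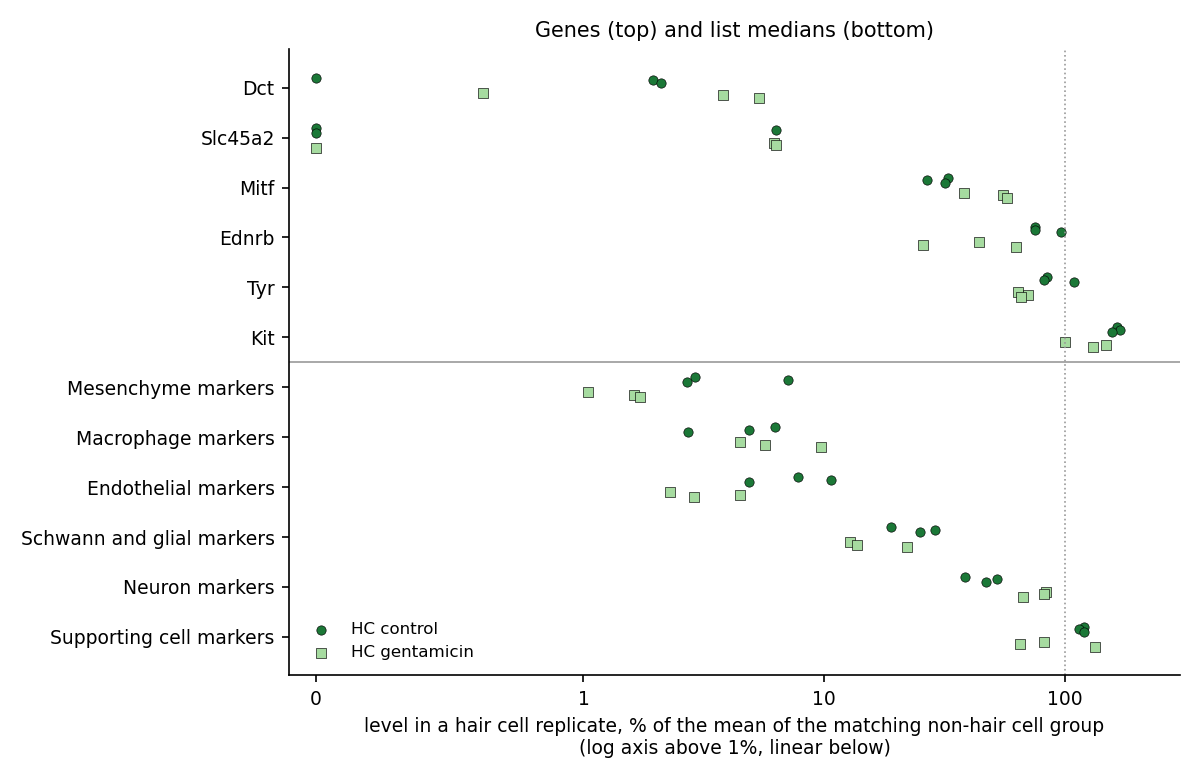
Level of 6 melanocyte genes and the median of 6 marker lists in each HC replicate, as a percent of the mean of the NHC group with the same treatment, after removal of the added 1 (log axis above 1%, linear below; circles control, squares gentamicin; the dotted line is 100%). Dct and Slc45a2 lie at 0 to 6.31%, a range that the mesenchyme and macrophage lists overlap, and Kit lies at or above 100%.

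With gentamicin, Tyr was called lower in HC and Dct lower in NHC, and neither call held with every replicate left out in turn. The criteria of the study, applied here to limma p-values, ask for p under 0.01 before adjustment together with a change of more than 1.2-fold. In HC, 1 of the 6 tested genes met them, beside 27.5% of all tested genes in either direction. That gene was Tyr, and 14.8% of all tested genes were called lower. A count of 1 in 6 is too small to be told from these shares. Its normalized read numbers went from 6.14, 5.98 and 7.63 in control HC to 4.46, 4.81 and 4.56 with gentamicin. All treated replicates lay below all controls. Gentamicin minus control, this was -0.51 on the log2 scale (standard error 0.13, limma adjusted p = 0.0124). Without HC control replicate 3, the highest of the 3, Tyr no longer met the criteria (-0.40, limma adjusted p = 0.051).

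Ednrb went from 79.2, 79.4 and 102 in control HC to 61.9, 36.4 and 87.8. The treated replicates were widely spread and overlapped the controls, and the log2 difference of -0.56 did not pass (limma adjusted p = 0.14). Without HC gentamicin replicate 3 it was -0.86 and met the criteria (limma adjusted p = 0.0273).

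For Mitf the HC values with gentamicin were 4.38, 5.94 and 6.10, of which the first lay within the control range, and the log2 difference was 0.32 (limma adjusted p = 0.20). Kit had 80.8, 119 and 105, again overlapping the controls, with -0.22 (limma adjusted p = 0.21). The few Dct reads in treated HC, 1, 6 and 10, gave a log2 difference of 0.08 (limma adjusted p = 0.79). Slc45a2 had 1, 1 and 0 reads there, which is under the limit that a count of 0 allows.

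Markers of other cell types also moved in the HC samples. Mesenchyme markers had a median of 1.04 to 1.71% of the NHC level in treated HC, below the 2.69 to 7.07% of control HC, with 3 of 8 called lower (Col1a2, Col3a1 and Dcn), beside 14.8% of all tested genes, and all 8 differences negative, beside 59.9% of all tested genes. Of 10 Schwann and glial markers, 3 were called lower (Foxd3, Mbp and Pmp22) and all 10 differences were negative. Of 8 endothelial markers, 1 was called lower (Cdh5) and 7 differences were negative, with a median of -0.64. None of the 7 macrophage markers was called, 5 of their 7 differences were positive with a median of 0.06, and their level was 4.47 to 9.73% of NHC in treated HC and 2.72 to 6.22% in control HC. The summed level of 8 supporting and epithelial markers was 2586 to 3004 units in control HC and 1532 to 2906 in treated HC, with the lowest sum in HC gentamicin replicate 2, the one in which Ednrb was lowest. The part of these shifts in the values of Tyr and Ednrb was not tested.

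In NHC, 1 of the 6 genes met the criteria with gentamicin, beside 5.45% of all tested genes, 2.26% being called lower, and again a count of 1 says nothing about the group. It was Dct, which went from 14.1, 12.6 and 9.34 to 6.41, 9.58 and 6.87. The ranges touched, as the highest treated replicate lay above the lowest control. Gentamicin minus control, this was -0.66 on the log2 scale (standard error 0.20, limma adjusted p = 0.14). The criteria were no longer met with NHC control replicate 1 or 2 or NHC gentamicin replicate 1 or 3 left out (log2 fold changes of -0.53 to -0.61). They were also not met when the 2 NHC groups were fitted alone (limma adjusted p = 0.42). The reads behind these values were 317, 292 and 216 in control and 140, 233 and 167 in treated NHC.

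The other pigment genes did not follow Dct past the test. Tyr had 5.85, 7.10 and 6.33 in treated NHC, overlapping the controls, with a log2 difference of -0.15 (limma adjusted p = 0.59). Slc45a2 had 15, 27 and 12 reads there, on both sides of the 16 to 18 of the controls, with -0.02. Mitf had 8.42, 9.07 and 12.2, of which the last lay within the control range, with -0.29 (limma adjusted p = 0.43).

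Both receptors showed positive differences in NHC that did not pass. Kit had 85.7, 74.4 and 81.4 with gentamicin, overlapping the controls, and differed by 0.17 on the log2 scale (limma adjusted p = 0.52). Ednrb had 107, 162 and 149, also overlapping, with 0.40 (limma adjusted p = 0.49). Among the lists of other cells in NHC, none of the 8 mesenchyme, 10 Schwann and glial, 7 macrophage or 6 neuron markers was called. Of 8 endothelial markers, Cldn5 was called higher. Beside the 5.45% of all tested genes called in NHC, nothing about these lists is read from the counts. The median over the 6 neuron markers was -1.05.

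**Figure D3:**
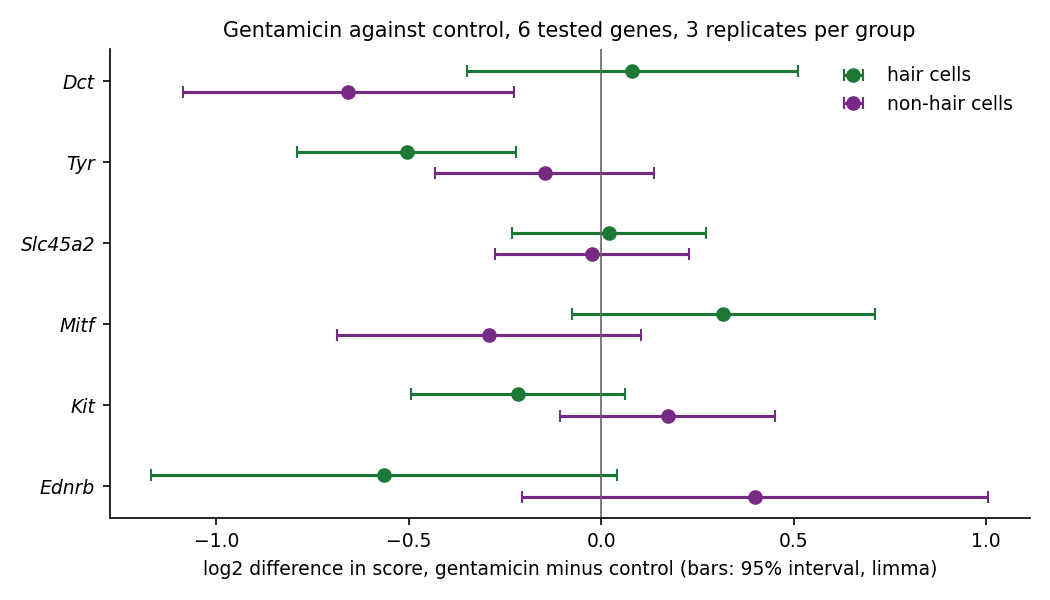
Log2 difference in normalized read number between gentamicin and control for the 6 tested genes, in HC (green) and NHC (purple), with limma 95% intervals from 3 replicates per group. The interval excludes 0 for Tyr in HC (-0.79 to -0.22) and for Dct in NHC (-1.09 to -0.23), and includes it for the others.

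Whether the responses differed between HC and NHC was tested as an interaction in the same limma fit. None of the 6 genes passed an adjusted p under 0.05, beside 13.4% of all tested genes, and 3 had an unadjusted p under 0.05. These were Dct (difference of the responses 0.74, adjusted p = 0.10), Mitf (0.61, adjusted p = 0.13) and Ednrb (-0.96, adjusted p = 0.12). Dct passed without NHC gentamicin replicate 2 (0.91, adjusted p = 0.0455), and Ednrb passed without HC gentamicin replicate 3 (-1.26, adjusted p = 0.0341). The interaction values of Tyr (-0.36), Kit (-0.39) and Slc45a2 (0.04) did not pass.

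The ligands Kitl and Edn3 were read mainly in NHC. Of 11 ligands and partners of the receptors, 10 were in the files and tested, and 8 were called between the control populations, beside 74% of all tested genes. Of the 8, 7 were lower in HC, beside 42.1%, and 1 of these, Edn3, passed the read minimum only through NHC. Kitl, the Kit ligand, had 23.6, 27.5 and 22.4 in control NHC and 2.69, 3.95 and 2.89 in control HC. The populations were far apart, with a log2 difference of -2.96 (limma adjusted p = 7.1e-08), opposite in sign to that of its receptor. Edn3, a ligand of Ednrb, had 6.33, 9.08 and 5.87 in control NHC and 1.13, 1.13 and 1.09 in control HC, which is 1.93% of the NHC level (8 against 459 reads, counting interval 0.827 to 3.83%). Ece1, which cleaves the endothelin precursors, was lower in HC (-0.97, limma adjusted p = 6.0e-05), and so was the related receptor Ednra (-2.42, limma adjusted p = 3.5e-04). Edn2, another endothelin, was the 1 higher in HC, at 10.3, 10.1 and 9.80 against 2.41, 3.50 and 6.25 (log2 difference 1.43, limma adjusted p = 0.0021).

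With gentamicin, Kitl in NHC went to 36.4, 32.2 and 47.6, above all 3 controls. The log2 fold change was 0.65 (limma adjusted p = 0.13), and it met the criteria as 1 of 10 in this list, beside 5.45% of all tested genes. It no longer did with NHC control replicate 1 or 3 or NHC gentamicin replicate 1 or 3 left out. Met, the receptor of hepatocyte growth factor, fell in HC from 6.82, 8.91 and 7.04 to 4.13, 3.89 and 4.85. No replicate overlapped, the log2 fold change was -0.82 (limma adjusted p = 0.0013), and the call held with any 1 replicate left out.

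**Figure D4:**
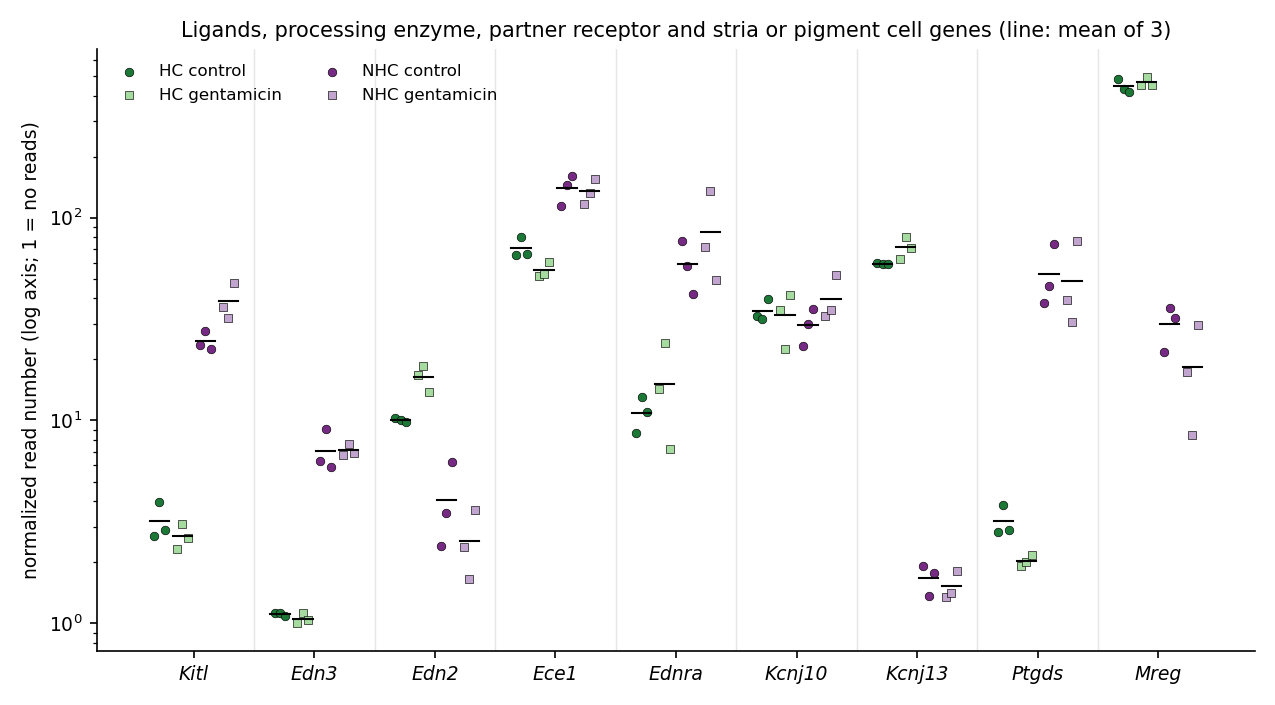
Normalized read number of receptor ligands and partners (Kitl, Edn3, Edn2, Ece1, Ednra), intermediate cell genes of the stria (Kcnj10, Kcnj13, Ptgds) and the melanosome gene Mreg in each replicate, on a log axis where 1 means no reads; each line is the mean of 3. Kitl, Edn3, Ece1, Ednra and Ptgds lie higher in control NHC than in control HC, Edn2, Kcnj13 and Mreg lie higher in control HC, and Kcnj10 overlaps.

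Of 17 other genes of the melanosome, 15 were tested and 13 were called between the control populations, beside 74% of all tested genes, 12 of them lower in HC, beside 42.1%. Gpnmb, Oca2, Rab32 and Rab38 passed the read minimum only through NHC, and of the other 11, 8 were lower and 1 higher. Pmel, which forms the fibrils on which melanin is laid down, had 5.16, 5.52 and 6.40 in control HC and 8.57, 7.25 and 7.33 in control NHC, which did not overlap (log2 difference -0.44, limma adjusted p = 0.027). It overlaps Cdk2 and Dgka on the other strand, so that reads of these genes could be counted in it. Gpnmb, a melanosome and lysosome glycoprotein that macrophages also make, was much lower in HC (-3.67). Mreg, a melanosome transport gene, was the 1 higher in HC, at 485, 431 and 418 against 21.7, 35.8 and 32.2 (3.92, limma adjusted p = 8.9e-07). With gentamicin in HC, 2 of the 15 met the criteria, beside 27.5% of all tested genes. Myo5a, the motor that carries melanosomes and other cargo, rose from 33.8, 43.0 and 33.3 to 48.5, 53.9 and 56.5 without overlap (log2 fold change 0.54, limma adjusted p = 0.0129), and the copper transporter Atp7a fell by 0.27. Myo5a lost its call without HC control replicate 1 or 3 or HC gentamicin replicate 3, and Atp7a without HC control replicate 2 or 3 or HC gentamicin replicate 2. In NHC none of the 15 met the criteria, beside 5.45%.

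Of 9 tested regulators of the lineage, 9 were called lower in HC, beside 42.1% of all tested genes. Irf4, with 14 HC reads, and Snai2, with 98.9, passed the read minimum only through NHC, which leaves 7 of 7. Sox10, which acts upstream of Mitf and is also expressed in glia and in cochlear epithelium, had 113, 135 and 113 in control HC and 260, 355 and 388 in control NHC, and no replicate overlapped (log2 difference -1.46, limma adjusted p = 3.9e-04). Pax3, a neural crest factor, had 12.1 reads in control HC and 24.1 in control NHC and was not tested. With gentamicin, Sox10 in HC fell by 0.84 on the log2 scale (limma adjusted p = 0.033) to 81.3, 43.5 and 85.8, below all controls, and Zeb2, another neural crest factor, fell by 0.78 (limma adjusted p = 0.029). Both lost the call in 4 of the 6 fits that left out 1 HC replicate, and with the replicates scaled to equal totals. Those replicates were the 3 HC controls and HC gentamicin replicate 2 for Sox10, and HC control replicates 2 and 3 and HC gentamicin replicates 1 and 2 for Zeb2. These were 2 of 9 genes, beside 14.8% of all tested genes called lower in HC. In NHC none of the 9 met the criteria, beside 5.45% of all tested genes.

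Genes of the stria did not form 1 pattern either. Kcnj10 had 32.6, 31.5 and 39.5 in control HC and 23.3, 29.9 and 35.5 in control NHC, which overlapped (log2 difference 0.24, limma adjusted p = 0.38). The potassium channel gene Kcnj13 was read in HC, at 59.5, 59.2 and 58.8 against 1.91, 1.36 and 1.77 in control NHC (log2 difference 5.15). It passed the read minimum only through HC, so this difference is given as a description. The gene overlaps Gigyf2 on the other strand. Ptgds, which makes prostaglandin D, was higher in NHC, at 37.9, 46.3 and 74.5 against 2.82, 3.82 and 2.89 (-4.01). Of 8 tested markers of marginal cells, which line the stria towards the endolymph, 6 were lower and 1 higher in HC, some of the 6, such as Kcne1, having passed the read minimum only through NHC. Of 4 markers of basal cells, 1 was lower (Cldn11) and 1 higher (Gjb6). Among all tested genes, 42.1% were called lower and 31.9% higher. With gentamicin, none of the 3 intermediate and 8 marginal cell genes met the criteria in HC or NHC. Of all tested genes, 27.5% met them in HC and 5.45% in NHC. Gjb2, a connexin of basal and of epithelial supporting cells, was called lower in HC (-0.77, limma adjusted p = 0.025), and Cldn11, the basal cell claudin, higher in NHC (0.53, limma adjusted p = 0.12). Gjb2 lost the call without HC control replicate 1 or 3 or HC gentamicin replicate 2 and with equal totals, and Cldn11 without NHC control replicate 2 or 3 or NHC gentamicin replicate 2 or 3.

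The genes whose pattern was most like that of the 5 pigment genes (Dct, Tyr, Tyrp1, Mlana and Slc45a2, averaged on the log2 scale) over the 12 replicates included Ube2d1, Hdac7, Wnt16, Esyt1, Mtx1, Ctps2, Caprin2, Map1lc3b and Nup107. The root mean square differences of the 10 most alike from the average were 0.0710 to 0.0942 on the log2 scale. That average takes in Tyrp1 and Mlana, with 28 and 9 reads in all. It also joins genes as unlike between the control populations as Dct (-3.37) and Tyr (-0.12), so it need not stand for any 1 of them. Of these 10 genes, 1, Hdac7, was also among the 10 most alike over the 6 NHC replicates alone, and none was among the 10 most like Dct itself, which began with Myc, Ier5l and Ctss. No other gene of the pigment list was among these 10, and 1 of the lineage regulators, Snai2, was among the 10 most like Dct.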

How the data were processed

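Poly(A) RNA of sorted cochlear cells was sequenced by the authors as 50 bp single-end reads, trimmed and aligned to mm10 with TopHat2 in PartekFlow. The authors deposited a score for each gene and replicate. Their methods speak of RPKM, but after removal of the added 1, division by the score of 1 read in that replicate returned whole reads, within 0.05 read, for 76.6 to 78.4% of values of up to 50 reads, without division by gene length. The scaling factor is not given in the sources used here. Scores were therefore compared between genes only per kilobase of exon (GENCODE M21).

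Log2 scores, offset 1 as deposited, entered limma 3.58.1 (R 4.3.3) with a variance trend, all 4 groups in 1 model, over the 16088 genes with at least 100 recovered reads. Tests were two-sided with Benjamini-Hochberg adjustment. Gentamicin contrasts were called by the criteria of the study (p under 0.01 before adjustment, more than 1.2-fold), the others at an adjusted p under 0.05. The study took its p from the gene specific analysis of PartekFlow, so its calls and those made here need not be the same. Fold changes on this scale understate those of low genes. The study calls its 3 replicates per group biological. The fit was tested on simulated data. Ratios of reads have exact binomial intervals (scipy 1.17.1), and counts of 0 a limit of 3 reads over the group. Both cover counting error only.

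The replicate numbers of the column headers were checked for pairing. Deviations of same-numbered HC and NHC samples were correlated across genes at 0.22, 0.32 and 0.20 in controls and 0.38, -0.04 and -0.02 with gentamicin. The numbers may pair the controls, but the main fit held no pairing term. A replicate block was run as an alternative. Between gentamicin and control the correlations were 0.04, 0.05 and 0.04 in HC and 0.21, -0.23 and 0.68 in NHC, and the numbers were not taken to pair them.

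The 8 genes and the marker lists were chosen with earlier results of these data known. Named were all 8, list members called with gentamicin, Pmel, Sox10, Pax3, Kitl, Edn3, Ece1, Kcnj10, Kcnj13 and Pmp22, and the 10 genes most alike, of which 1 is not reported here. Other names, such as Mreg, Gpnmb, Edn2, Ednra, Ptgds, Hdc, Gjb6, Snai2 and the genes that reached the read minimum in 1 population only, were chosen after their values were seen. Asip was not analysed here. Alternatives were 2 other scalings, an offset of 0.1, minimums of 1000 reads and of none, the replicate block, fits of the compared groups alone, no variance trend and each replicate left out. Likeness to Dct alone was added after the data were seen.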

Additional observations from a re-analysis of the deposited data

Results flagged for a closer look

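For Myo5a and Met, the response to gentamicin differed between HC and NHC by the interaction term. Myo5a, from the melanosome list, was higher with gentamicin in HC (33.8, 43.0 and 33.3 to 48.5, 53.9 and 56.5) and overlapped between NHC control (97.2, 125 and 127) and NHC gentamicin (96.9, 83.4 and 110). The difference of the responses was 0.80 on the log2 scale (standard error 0.20, limma adjusted p = 0.0225). It did not pass without HC control replicate 1 or 3, HC gentamicin replicate 2 or NHC control replicate 2. For Met, from the receptor list, the HC values were lower with gentamicin and those of NHC overlapped (77.3, 82.9 and 76.8 to 85.7, 71.5 and 95.9). Its difference of the responses was -0.90 (limma adjusted p = 0.0142), and it passed with any 1 of the 12 replicates left out. These are 2 of the 49 genes tested in the 6 melanosome, regulator, ligand and stria lists, a smaller share than the 13.4% of all tested genes that passed, and nothing about the lists is read from them.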

How the results depend on the processing

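Among the 8 genes, the HC against NHC calls were the same under every alternative run, except that the minimum of 1000 reads leaves out Slc45a2 and so 3 calls remain. The NHC gentamicin count of 1 became 0 with an offset of 0.1 (Dct -0.73, limma adjusted p = 0.51) and with only the compared groups fitted. With replicates left out in turn, the counts ranged from 0 to 2 in HC, from 0 to 1 in NHC and from 0 to 1 for the interaction. For the other melanocyte, ligand and stria lists, the HC gentamicin count of 6 became 3 with equal totals, 11 with the replicate block and 10 with the compared groups alone, and the NHC count of 2 became 0 with the offset of 0.1. Leaving out replicates gave 2 to 9 in HC, 0 to 2 in NHC and 1 to 5 for the interaction. The cause was not tested. Uncalled values changed sign only with a replicate left out, for Dct in HC (range -0.0156 to 0.189, with -0.0022 between), Slc45a2 in NHC (-0.162 to 0.0821, with 0.0061 between), Met in NHC (-0.0115 to 0.200) and the Slc45a2 interaction (-0.0631 to 0.181). The replicate block changed no call of the 8 genes. For Tyrp1, Mlana and Slc45a2, depth limits what can be seen.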
